A study of Mus musculus with 3 samples.

Results

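The cytosolic ribosomal protein genes encode the proteins of the ribosome outside mitochondria. They were taken by symbol: names that begin with Rpl or Rps and a number, together with Rpsa, Rplp0, Rplp1 and Rplp2, without pseudogenes (names with -ps) and without the S6 kinase genes. This gave 84 of the 32285 genes in the count matrices, 32 of the small subunit, 49 of the large subunit and 3 of the P stalk, and all 84 are protein-coding in GENCODE vM21. The rule reads symbols, not measured values. The counts come from dendritic cells of wild-type C57BL/6 mice. They had been differentiated in vitro with FLT3L, a cytokine that dendritic cell development needs, and were read by single-cell RNA sequencing of transcript 3' ends in droplets. There were 3 cultures with 1 library each. The control medium held 2 mM glutamine, the low glutamine medium 50 µM, and the third medium 2 mM together with 1 µM of DON (6-diazo-5-oxo-L-norleucine). DON resembles glutamine and inactivates the enzymes that take it as a substrate. All 3 libraries share the genotype and the growth factor, and how many mice or wells gave each culture is not given in the sources used here.

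A ribosome holds 1 copy of most of these proteins, and a growing cell makes them in step with ribosomal RNA. Their mRNAs belong to the terminal oligopyrimidine (TOP) class, which starts with a C followed by a run of pyrimidines. Through this start, the kinase complex mTORC1, which senses amino acids, controls how well the mRNAs are translated. The values here are mRNA counts and do not measure translation. Developing and dividing cells are rich in these mRNAs, and neutrophils lose them as they mature.

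Start sites of some members on which the results below turn are shown first, because the pyrimidine run is what members of the class are said to share. They are windows of 30 bases before and 20 bases from the annotated start, from RefSeq on GRCm38.p6, on the gene's strand. Capitals mark a C followed by at least 5 bases that are each C or T within 10 bases of the start on either side, searched on the gene's strand only. Where a gene has several annotated starts in the table, the one with the run is shown, or else the most upstream one.
Rps24, chr14:24490648-24490697, plus strand: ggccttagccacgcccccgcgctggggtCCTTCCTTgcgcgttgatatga
Rpl35, chr2:39005112-39005161, minus strand: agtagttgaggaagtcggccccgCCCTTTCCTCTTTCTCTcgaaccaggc
Rpl7a, chr2:26910777-26910826, plus strand: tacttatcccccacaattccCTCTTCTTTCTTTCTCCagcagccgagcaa
Rps2, chr17:24720033-24720082, plus strand: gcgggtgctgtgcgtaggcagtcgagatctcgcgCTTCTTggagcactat
Rpl31, chr1:39367821-39367870, plus strand: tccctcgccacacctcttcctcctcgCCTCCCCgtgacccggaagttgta
Rps27, chr3:90213629-90213678, minus strand: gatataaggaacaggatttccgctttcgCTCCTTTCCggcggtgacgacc
Rps27l, chr9:66946056-66946105, plus strand: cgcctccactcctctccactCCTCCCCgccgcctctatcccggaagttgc
Rpl22l1, chr3:28805478-28805527, plus strand: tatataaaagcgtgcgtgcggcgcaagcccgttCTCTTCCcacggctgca
Rpl22, chr4:152324406-152324455, plus strand: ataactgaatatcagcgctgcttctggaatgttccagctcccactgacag
Rps4x, chrX:102189372-102189421, minus strand: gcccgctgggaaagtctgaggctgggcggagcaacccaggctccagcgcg
The last pair hold no such run in this window, and neither do Rpl4 and Rps15, which are named below but not printed here. This says only that these letters are not there. Of the 64 members in the table, 31 had the run (48.4%), against 4700 of 27025 genes in all (17.4%). Among the mitochondrial ribosomal protein genes it was 14 of 69 (20.3%), and among ribosome biogenesis factors 5 of 46 (10.9%). Among elongation factors and other mRNAs of the TOP class it was 4 of 13 (30.8%), so the search did not find the run in most of them. The run depends on where the start was annotated, so a shift of some bases moves a gene in or out of this count.

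The libraries held 89340379 UMIs in 10497 barcodes (control), 92002827 in 9817 (low glutamine) and 87611658 in 8962 (DON). After filters and removal of marked doublets, 9629, 9194 and 8430 cells were used, with median depths of 6667, 7609 and 7926.5 UMIs. Any 2 libraries shared 20 to 31 barcodes. The cells formed 24 clusters, clustered without the ribosomal protein genes, and marker lists gave clusters a name that ends in -like. Besides conventional dendritic cells of type 1 (cDC1), which present antigen to CD8 T cells, type 2 (cDC2), plasmacytoid cells (pDC), mature dendritic cells and progenitors, the cultures held neutrophil-like, monocyte or macrophage-like and B lineage-like cells. A cluster counted as cycling when S phase and G2 and M phase genes made up at least 1% of its UMIs, and otherwise as resting. The 11 classes with at least 50 cells in every library are compared, and the 2 smaller classes (basophil or mast-like, megakaryocyte-like) and 7 unnamed clusters are not. With 1 library per group no difference between treatments could be tested, so a library and its treatment cannot be told apart. The 95% intervals, exact binomial for shares and exact Poisson for CPM, the usual scaling of a gene's UMIs to the total of its library or class, cover counting error only. Both treatments are set against the same control library.

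Of the 84 members, 81 reached 20 CPM over all cells, from 85.2 CPM for Rpl7l1 to 6716 CPM for the highest, and 77 were above 1000 CPM. All 81 reached 20 CPM in each of the 11 classes. The other 3 are paralogues known mainly from testis or muscle. Rpl10l had 3, 0 and 1 UMIs in control, low glutamine and DON, Rpl39l had 9, 3 and 16, and Rpl3l had 19, 26 and 23. Of the 50 genes with most UMIs, 35 were members. Near-identical copies of these genes are many, and how the authors' counting split reads between them is not given in the sources used here. In the matrices, 6 further symbols such as Rpl9-ps6 and Rps27rt held 0.0209% of the UMIs.

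Ribosomal protein mRNA was higher in progenitor-like and B lineage-like cells than in most other classes, and lowest in neutrophil-like and macrophage-like cells. In resting progenitor-like cells the members took 33.8% of UMIs in control, 33.6% at low glutamine and 32.9% with DON, and the mean over the libraries was 33.4% ± 0.442 (SD, n = 3 libraries of different treatment). Cycling progenitor-like cells had 31.1% ± 0.594. B lineage-like cells had 34.2%, 28.9% and 34.5%, so that the low glutamine library stood below the other 2. These cells had median depths of 1930, 1862 and 4101 UMIs. The 12 neutrophil markers summed to 116 CPM in control, 1866 at low glutamine and 104 with DON in B lineage-like cells. Their part in the low glutamine value was not tested.

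Among dendritic cells, cDC2-like cells had 30.2%, 28.8% and 29.1% in control, low glutamine and DON. Resting cDC1-like cells followed with 28.9%, 28.1% and 27.8%, then resting pDC-like cells with 25.6%, 22.4% and 24.6%, and mature DC-like cells, which have the marker Ccr7, with 25.2%, 22.7% and 24.2%. In this order the cDC2-like and cDC1-like values overlapped over the libraries, and so did the pDC-like and mature DC-like values, while both cDC classes lay above both of the latter in every library. Monocyte or macrophage-like cells had 15.1%, 15.2% and 13.5%. Neutrophil-like cells pooled 3 clusters of different levels, 2 at 5.67 to 7.70% and 1, a cycling cluster with Elane and Mpo among its leading genes and 1.57% cell cycle UMIs, at 18.3 to 23.8%. The pooled share was 11.8%, 17.5% and 13.3%, and the last cluster gave 39 of 281, 102 of 398 and 83 of 335 of the cells.

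**Figure D1:**
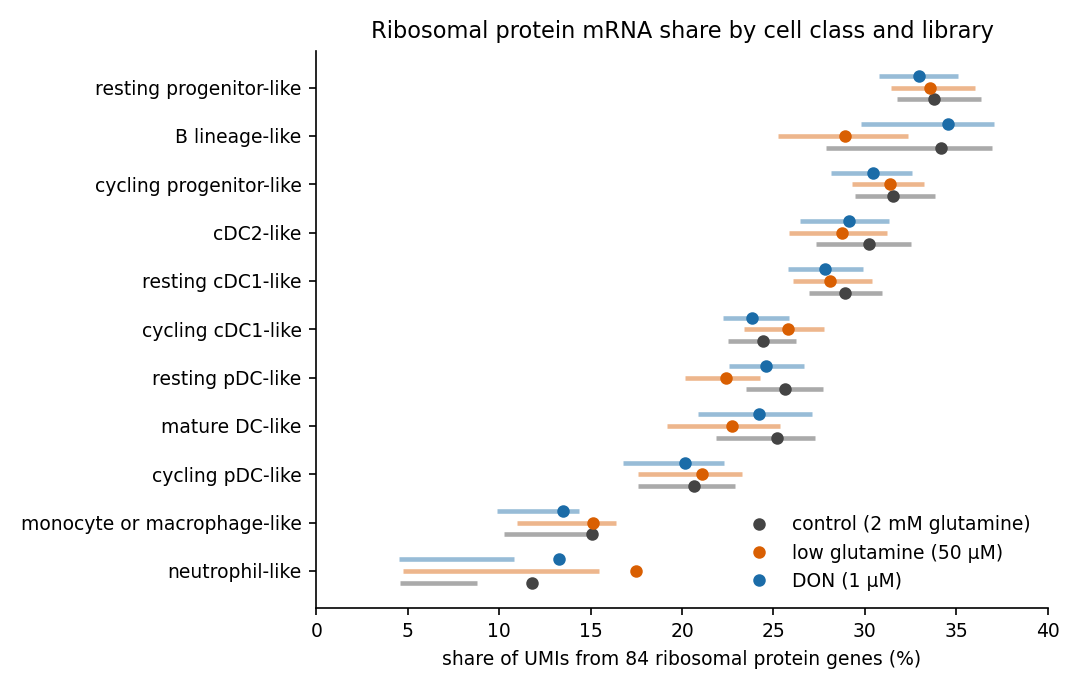
Share of UMIs from the 84 ribosomal protein genes (horizontal axis, %) in 11 cell classes. Points are the pooled share of each library, and bars run from the lower to the upper quartile of single cells. Resting progenitor-like cells lie at 32.9 to 33.8% and neutrophil-like cells at 11.8 to 17.5%, and the 3 libraries of most classes lie close together.

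Single cells of a class varied more than libraries did. In resting cDC1-like cells of control the lower and upper quartiles of the share were 27.0 and 30.9%, and in resting pDC-like cells 23.5 and 27.7%. Over all cells of a library the SD was 6.13 percentage points in control, 6.92 at low glutamine and 6.43 with DON. Of the variance between cells, 61.6%, 64.6% and 64.1% lay between clusters. The clusters had been made without the member genes.

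Over all cells of a library, the members took 27.1% of UMIs in control, 27.3% at low glutamine and 25.8% with DON. The low glutamine library held more progenitor-like cells, which have a high share: 8.20% of its cells were resting and 11.6% cycling progenitor-like, against 1.89% and 2.77% in control. With each cluster given its weight in control, the share was 25.98% at low glutamine and 26.1% with DON, 1.11 and 1.01 points below control. The low glutamine library thus lay above control as observed and below it at the control mix. When each cell counted alike its log2 ratio to control was -0.03, against 0.01 for pooled UMIs.

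In cDC2-like cells and in resting cDC1-like, pDC-like and progenitor-like cells the treated shares were below control, most of all in pDC-like cells at low glutamine. Resting pDC-like cells had 25.6% in control (95% interval 25.62 to 25.67%), 22.4% at low glutamine (22.35 to 22.41%) and 24.6% with DON (24.58 to 24.63%). The log2 ratios to control were -0.20 and -0.06. The values were 25.7%, 22.5% and 24.7% in cells of 5000 to 10000 UMIs, and 25.3%, 22.8% and 24.02% in the 59, 35 and 54 cells of 10000 to 20000 UMIs. It was -0.22 and -0.17 in the 2 clusters of the class taken alone. The low glutamine cells of the class also had more cell cycle UMIs (0.38% against 0.22% in control and 0.26% with DON) and more UMIs of the 13 progenitor markers (230 CPM summed, against 137 and 148), of which 6 were under 1 CPM in every library. Mitochondrial UMIs were 4.52%, 5.07% and 4.797%. Their part in the result was not tested.

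In the cDC and progenitor-like classes that were not cycling the ratios at low glutamine were smaller. The log2 ratio of the share was -0.04 in resting cDC1-like cells, -0.07 in cDC2-like cells and -0.01 in resting progenitor-like cells. With DON it was -0.06, -0.05 and -0.04 in the same order. The cDC2-like cells pooled 2 clusters. One of them, cluster 12, was at -0.154 at low glutamine, with 33.2% in control and 29.9% at low glutamine, and it held 229 of the class's cells in control and 403 at low glutamine. In resting cDC1-like cells the summed markers of cDC2 were 385 CPM in control, 769 at low glutamine and 708 with DON, with 2 of 11 markers under 1 CPM, and their part in the values for that class was not tested. Mature DC-like cells had -0.15 at low glutamine and -0.06 with DON, and B lineage-like cells -0.24 and 0.02. In the cycling classes the ratios at low glutamine were 0.08 in cDC1-like cells, which were 57 cells there, 0.03 in pDC-like cells and -0.01 in progenitor-like cells.

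Gene by gene, few members of cDC2-like and resting cDC1-like, pDC-like and progenitor-like cells differed from control by 25% or more of the smaller value. At low glutamine 1 of the 81 counted members was lower in resting cDC1-like cells, 1 in cDC2-like cells, 7 in resting pDC-like cells and 3 in resting progenitor-like cells. Over all genes of at least 20 CPM in 1 of the compared libraries, 4.99%, 3.92%, 4.78% and 5.28% were lower by this much in the same order. No member was higher in any of these 4 classes, against 16.6%, 21.0%, 23.7% and 12.8% of all genes. The median log2 ratios of CPM over members were -0.04, -0.07, -0.20 and -0.01, against 0.07, 0.12, 0.15 and 0.04 over all genes counted. Scaling by the median ratio of genes shifted all values of the resting pDC-like class by -0.14 and of the cDC2-like class by -0.11. Relative to that, the member medians were -0.34 and -0.18, and 45 members in place of 7 were lower in resting pDC-like cells. This scaling shifts every gene of the class alike, and the share of all genes lower under it is not given here. In place of 7, the count at the CPM scaling was 2 with a stricter cell filter and 3 in cluster 2 alone. It was 3 under the first naming rule (added after seeing the data) and 0 at 1.5-fold. Neutrophil-like cells, which pooled 3 clusters of different levels, stood apart. At low glutamine 79 members were higher and 0 lower there, against 2854 and 537 of 5851 genes. With DON 14 were higher and 0 lower, against 1381 and 621 of 5287. By cluster, the member share in control, low glutamine and DON was 6.80%, 7.12% and 7.70% in cluster 18. It was 5.73%, 6.24% and 5.67% in cluster 19, and 19.5%, 23.8% and 18.3% in the cycling cluster 20. With DON the share was thus below control in clusters 19 and 20. The part of the cluster mix in the pooled counts was not tested. At low glutamine 1 member was higher and 18 lower in B lineage-like cells, against 2132 and 1121 of 6307 genes. In mature DC-like cells 0 were higher and 8 lower, against 952 and 1001 of 5248.

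**Figure D2:**
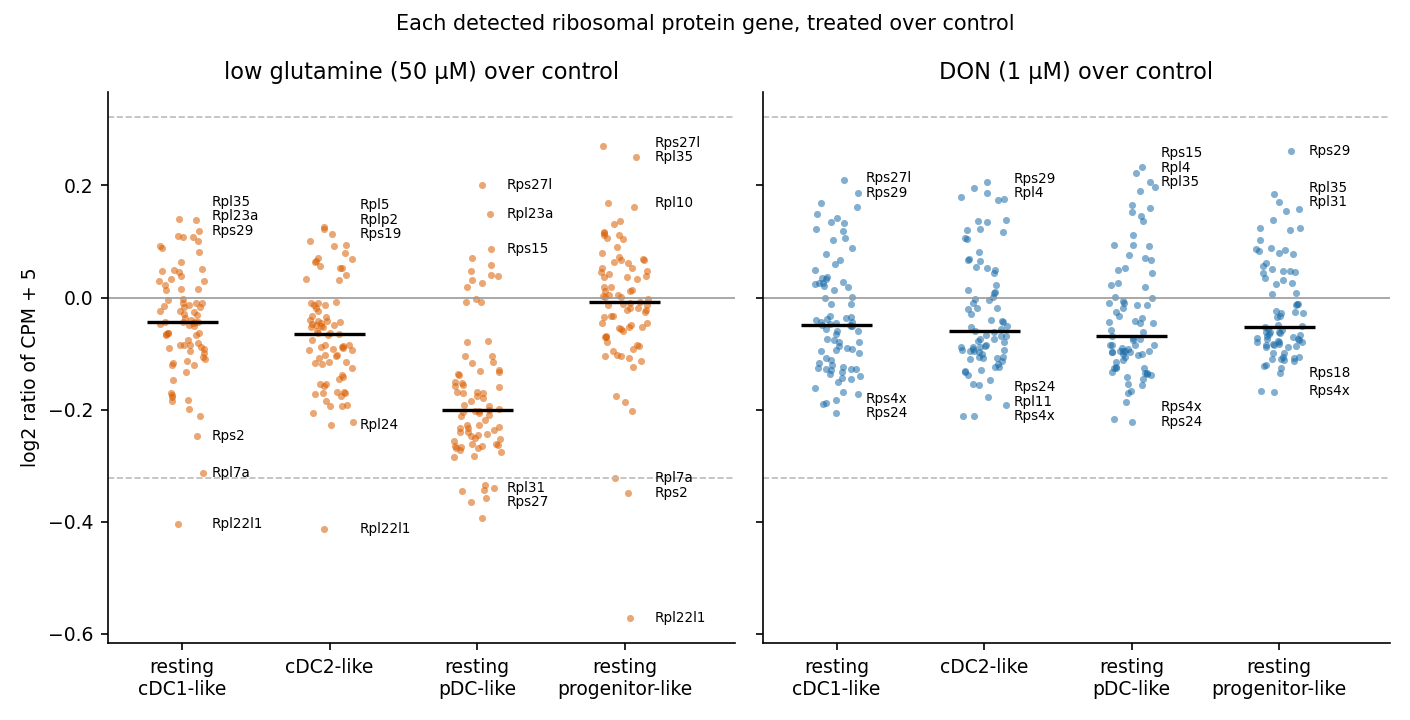
Log2 ratio of CPM + 5, treated over control (vertical axis), for the 81 detected members in 4 classes at low glutamine (left) and with DON (right). Each point is a gene, black bars are medians, dashed lines mark the 25% difference, and genes among the 3 highest and 3 lowest are named beside their points, with labels spread to be legible. The median of resting pDC-like cells at low glutamine is -0.20, and no point with DON passes the dashed lines.

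Rpl22l1, a paralogue of the large subunit protein gene Rpl22 (ENSMUSG00000039221, chromosome 3, 28805436 to 28807424 in GENCODE vM21), was the lowest member at low glutamine in 3 of the 4 classes. In resting progenitor-like cells it had 1491 CPM in control (1442 to 1541), 1001 at low glutamine (982 to 1022) and 1385 with DON (1339 to 1433). It had 555, 418 and 581 CPM in resting cDC1-like cells, and in cDC2-like cells 632, 473 and 630. The low glutamine library was thus the lowest in each of these classes and the DON library was near control. The log2 ratios at low glutamine were -0.57, -0.40 and -0.41, and in resting pDC-like cells -0.25.

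Rps2 and Rpl7a, members of the small and the large subunit, were next in the progenitor-like and cDC1-like cells. Rps2 had 6268 CPM in control, 4924 at low glutamine and 5795 with DON in resting progenitor-like cells, with log2 ratios of -0.35 and -0.11. Rpl7a had 1969, 1574 and 2003 CPM there, with log2 ratios of -0.32 and 0.02. Rps2 was at -0.25 and Rpl7a at -0.31 at low glutamine in resting cDC1-like cells. Rps27l, a paralogue of Rps27 that is known as a p53 target, was the highest member at low glutamine in resting progenitor-like cells, with 929, 1121 and 1034 CPM and a log2 ratio of 0.27. Rpl35 followed there with 942, 1121 and 1071 CPM.

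In resting pDC-like cells other members were among the lowest at low glutamine. Rps27 had 3561, 2764 and 3670 CPM, and Rpl31 had 2512, 1959 and 2467. In both genes the low glutamine library was lowest and the DON library stood near control. Their log2 ratios at low glutamine were -0.37 and -0.36, and Rpl24, Rpl29, Rpl34 and Rpl36 also passed the 25% limit (named after their values were seen). Rps27l (0.20), Rpl23a (0.15) and Rps15 (0.09) were the highest members. Rps15 was at -0.05 with the median ratio scaling and at -0.04 with the stricter cell filter, so its direction turned.

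With DON no member differed by 25% in either direction in these 4 classes. Over all genes, 9.34% were higher and 3.72% lower in resting cDC1-like cells, 1.70% and 1.41% in cDC2-like cells, 1.70% and 2.00% in resting pDC-like cells, and 6.38% and 4.95% in resting progenitor-like cells. The member medians were -0.05, -0.06, -0.07 and -0.05 in the same order, and the members ranged from -0.22 to 0.26. Counting error is not small against these ratios for every member. Rpl7l1, for instance, had 244 UMIs in control and 267 with DON in resting progenitor-like cells. No second culture gives the spread between cultures.

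Rps29 was above control with DON in all 11 classes. Rps29, a small subunit protein, had 4675 CPM in control, 4778 at low glutamine and 5351 with DON in cDC2-like cells, and 4384, 4800 and 5254 in resting progenitor-like cells. Its log2 ratio with DON lay between 0.09 and 0.44 over the 11 classes, with a median of 0.20. Rps24 had 7429, 6170 and 6372 CPM in resting pDC-like cells and 7032, 7181 and 6094 in resting cDC1-like cells. Its ratio with DON lay between -0.28 and 0.04, with a median of -0.17. Rps4x, the X-linked small subunit gene, had 5040, 4520 and 4352 CPM in cDC2-like cells, and its ratio with DON had a median of -0.19 over the classes, from -0.36 to 0.05.

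Rpl35, Rpl4 and Rps15 had medians of 0.19, 0.16 and 0.16 over the 11 classes with DON. Their lowest values were -0.18, -0.12 and -0.03, so none of these 3 was above control in every class. Rpl11 was at -0.21 in cDC2-like cells, and Rps18 at -0.13 in resting progenitor-like cells. Rpl5 and Rpl11, which together with the ribosomal RNA of the large subunit can bind the p53 regulator MDM2, differed in sign: in cDC2-like cells Rpl5 was at 0.13 at low glutamine and 0.12 with DON, and Rpl11 at -0.18 and -0.21. A library and its treatment cannot be told apart for such gene-specific offsets.

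Pairs of paralogues were set against each other within cells of a class, as the part of the pair's UMIs that came from the second gene. Rpl22l1 gave 38.6% of the Rpl22 and Rpl22l1 UMIs in resting progenitor-like cells of control (95% interval 37.6 to 39.6%), 30.1% at low glutamine (29.6 to 30.6%) and 37.1% with DON (36.1 to 38.0%). In cDC2-like cells it gave 22.1%, 18.1% and 22.04%, and in resting cDC1-like cells 19.5%, 15.7% and 20.8%. Mature DC-like cells had the lowest part, with 13.9%, 11.9% and 16.03%. In resting pDC-like cells the part was 27.2%, 26.2% and 26.8%, with intervals that overlap between control and low glutamine. Rpl22 itself was close to control, at 2375, 2322 and 2354 CPM in resting progenitor-like cells. In the pooled library the part was 26.5%, 28.8% and 28.7%.

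Rps27l gave 11.1% of the Rps27 and Rps27l UMIs in resting pDC-like cells of control (10.8 to 11.3%), 15.6% at low glutamine (15.1 to 16.02%) and 11.8% with DON (11.6 to 12.1%). Resting progenitor-like cells had 29.1%, 33.2% and 29.6%. Across classes the part ran from 4.13%, 5.29% and 4.46% in B lineage-like cells to 36.6%, 34.8% and 34.5% in mature DC-like cells. The near-identical copy Rps27rt had 82.5 to 108 CPM over all cells, so reads of Rps27 may be split.

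**Figure D3:**
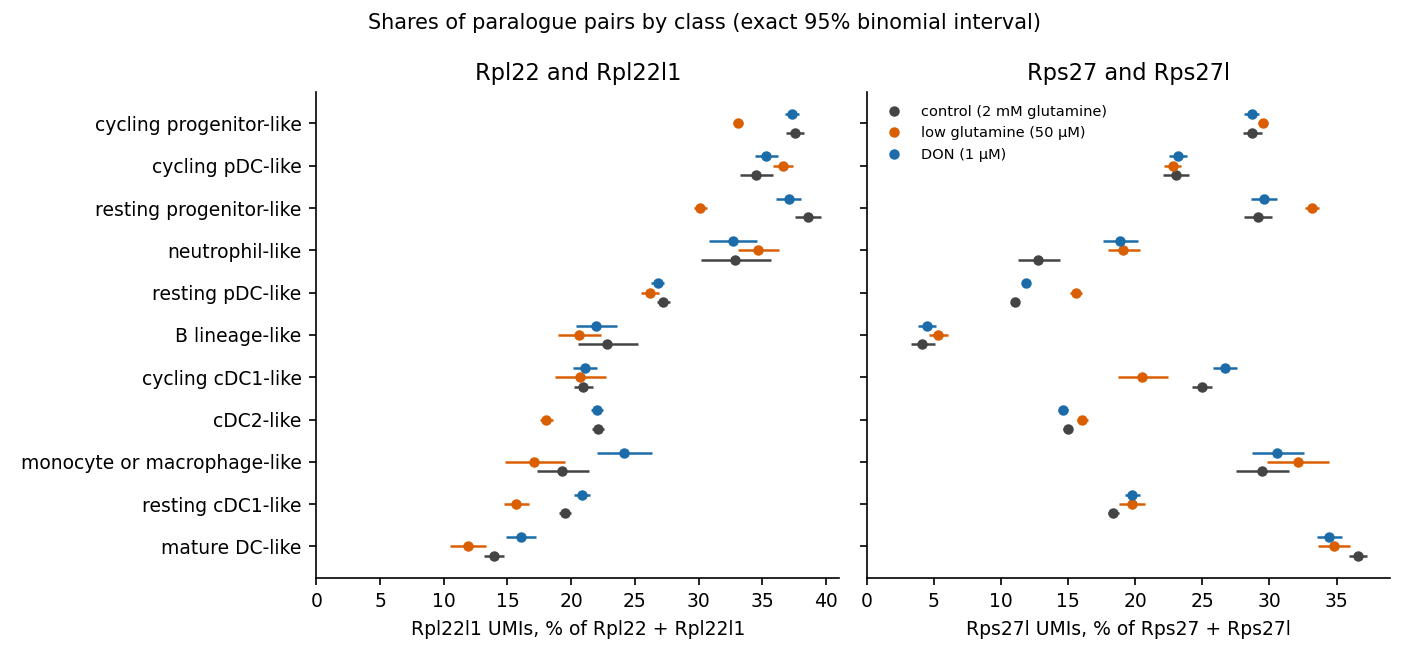
Part of a pair's UMIs that came from Rpl22l1 (left, % of Rpl22 and Rpl22l1) and from Rps27l (right, % of Rps27 and Rps27l) in 11 classes. Points are libraries and bars are exact 95% binomial intervals. Rpl22l1 lies near 38.6 and 37.1% in resting progenitor-like cells of control and DON and at 30.1% at low glutamine, and Rps27l spans 4.13 to 36.6% over classes.

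Rpl36al gave 60.4% of the Rpl36a and Rpl36al UMIs in resting pDC-like cells of control and 37.6% in resting progenitor-like cells, with 58.2% and 36.5% at low glutamine and 61.0% and 38.9% with DON. Over all cells it was 48.4%, 42.7% and 48.5%. Rpl7l1, known from ribosome assembly, gave 3.34%, 3.37% and 3.64% of the Rpl7 and Rpl7l1 UMIs over all cells. Rpl3l gave at most 0.0120% of its pair over all cells in any library, and Rpl39l and Rpl10l gave less. Rps4l, the partner named for Rps4x, is not among the gene symbols of the matrices.

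In cDC1-like, pDC-like and progenitor-like cells, the cycling clusters had a lower share of ribosomal protein UMIs than the resting ones. Among the neutrophil-like clusters the cycling one had the highest share. In cDC1-like cells the cycling cluster had 24.4%, 25.8% and 23.8% in control, low glutamine and DON, against 28.9%, 28.1% and 27.8% in the resting one. The mean log2 difference over the libraries was -0.20 ± 0.0636 (SD, n = 3). In pDC-like cells the values were 20.7%, 21.1% and 20.1% cycling against 25.6%, 22.4% and 24.6% resting, a mean of -0.23 ± 0.124. In progenitor-like cells they were 31.6%, 31.4% and 30.4% against 33.8%, 33.6% and 32.9%, a mean of -0.10 ± 0.00869. The cycling share was lower in all 3 libraries of each type, and in cDC1-like and pDC-like cells the gap was smallest at low glutamine, where the resting share was lower or the cycling share higher than in control. The 3 cycling and 3 resting shares did not overlap in any of the 3 types. The cycling pDC-like cluster differed from the resting ones in markers too. The 16 pDC markers summed to 8227, 9564 and 8403 CPM cycling, against 13056.5, 13889 and 12850 resting. The 13 progenitor markers summed to 274, 385 and 296 CPM cycling, against 137, 230 and 148 resting. The part of these marker differences in the gap was not tested.

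Cycling cells were deeper, with median depths of 13901, 12788 and 15275 UMIs in cDC1-like cells against 8695, 7623 and 9557 in resting ones. Within 5000 to 10000 UMIs the mean log2 difference was -0.23 in cDC1-like cells, of which under 20 were cycling at low glutamine. In pDC-like cells it was -0.35, with shares of 19.7%, 19.7% and 17.9% cycling against 25.7%, 22.5% and 24.7% resting. Within 10000 to 20000 UMIs the gap in pDC-like cells was smaller, with 21.8%, 22.4% and 20.6% cycling against 25.3%, 22.8% and 24.02% resting. In cDC1-like cells the shares in this window were 24.2%, 25.98% and 23.8% against 29.03%, 27.7% and 27.4%. Since cycling cells hold more UMIs, the number of ribosomal protein UMIs per cell was higher: the medians in cDC1-like cells were 3420, 3455 and 3632 cycling and 2508, 2197 and 2681 resting. The resting progenitor-like cluster had 0.86 to 1.00% cell cycle UMIs, close to the limit of 1% that defined it, and at a limit of 0.6% no resting progenitor-like class was left. When single cells were called cycling instead, after thinning to 2000 UMIs, the mean difference in progenitor-like cells was -0.14.

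**Figure D4:**
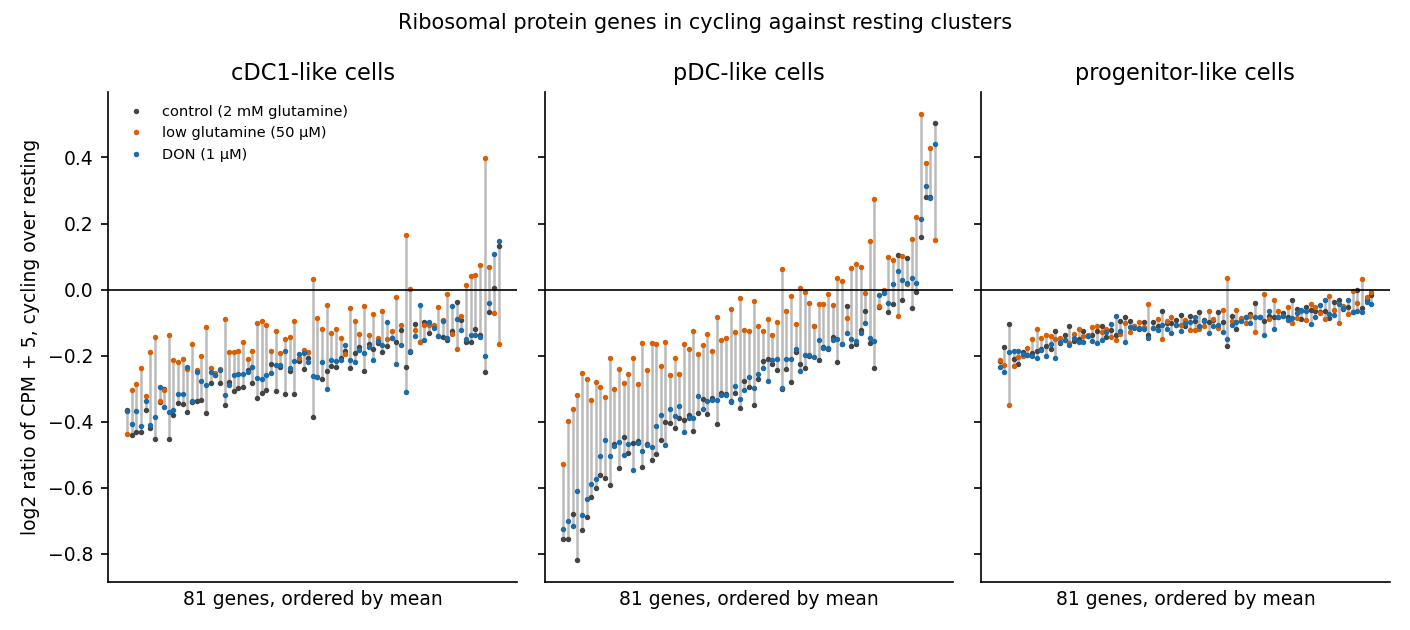
Log2 ratio of CPM + 5 in cycling over resting clusters (vertical axis) for the 81 detected members, ordered by their mean, in cDC1-like, pDC-like and progenitor-like cells. Coloured points are libraries and grey lines span them. Most genes lie below 0 in each panel, and the pDC-like panel spans the widest range, from a mean of -0.67 to 0.36.

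By gene, 56 of 81 members were lower in cycling cDC1-like cells with no overlap between the 3 cycling and the 3 resting values, and 0 were higher, against 11.1% lower and 21.9% higher over all genes counted. In pDC-like cells 51 were lower and 4 higher, against 26.4% and 30.8%. In progenitor-like cells 40 were lower and 0 higher, against 10.9% and 17.1%. Cell cycle UMIs were 1.68 to 2.43% of the total in the cycling cDC1-like and pDC-like clusters, and 0.22 to 0.41% in the resting ones. The progenitor-like clusters were closer to each other, at 1.78 to 1.87% cycling and 0.86 to 1.00% resting.

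The members differed most from each other in pDC-like cells. Rps27 had mean log2 differences, cycling over resting, of -0.67 over the libraries and Rpl10 of -0.58. Rpl10 had 1977, 1797 and 2216 CPM in resting and 1233, 1398 and 1348 CPM in cycling pDC-like cells. The 4 members that were higher were Rps27l (0.36), Rpsa (0.33), Rps19 (0.33) and Rpl22l1 (0.30). Rpsa, the small subunit protein also known as the laminin receptor, had 3489, 3306 and 3380 CPM in resting and 4240, 4448 and 4099 in cycling pDC-like cells. Rps19, whose loss causes Diamond-Blackfan anaemia in people, had 2874, 2859 and 2659 against 3491, 3729 and 3307. By the rule that called them, each of the 4 genes was higher in every cycling value than in every resting one.

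In cDC1-like cells Rpl27 (-0.39), Rpl17 (-0.38) and Rpl10 (-0.36) were lowest in cycling cells, and Rps27l (0.04), Rpl7l1 (0.01) and Rpl36a (-0.01) were highest. In progenitor-like cells the members kept within a narrow range, from -0.22 for Rpl5 and Rps26 to -0.02 for Rpsa. Rps27l was among the lowest there at -0.21 and among the highest in the other 2 types, with a range over the libraries of -0.35 to -0.10 in progenitor-like and 0.15 to 0.50 in pDC-like cells.

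The part of each gene in the members' own total was compared across cell classes. The median range of a member over the 11 classes was 0.62 on the log2 scale, and 13 members ranged by more than 1. The median SD between libraries of the same class was 0.07, which as an SD is not directly comparable with a range. Rps27l ranged most (3.26), from 680, 894 and 785 member CPM (its UMIs over all member UMIs, scaled as CPM are) in B lineage-like cells to 7583, 7435 and 7441 in mature DC-like cells, in control, low glutamine and DON. Rpl31 (1.84) was highest in resting pDC-like cells, at 9798, 8754 and 10029, and lowest in mature DC-like cells, at 2596, 2604 and 2766. In each case the 3 libraries of the high class were well above the 3 of the low one.

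Rpl22l1 (1.82) was high in both progenitor-like classes, at 4195, 3271 and 4097 member CPM in cycling and 4413, 2983 and 4206 in resting cells, and lowest in mature DC-like cells, at 1158, 862 and 1288. Rpl7l1 (1.40), Rps15 (1.38) and Rpl23a (1.23) were highest in monocyte or macrophage-like cells and lowest in B lineage-like cells. Rps15 had 12134, 11102 and 13248 in the former and 3835, 5353 and 4969 in the latter. The most even members were Rpl6 (0.20), Rpl27a (0.24) and Rpl23 (0.24), all of the large subunit.

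**Figure D5:**
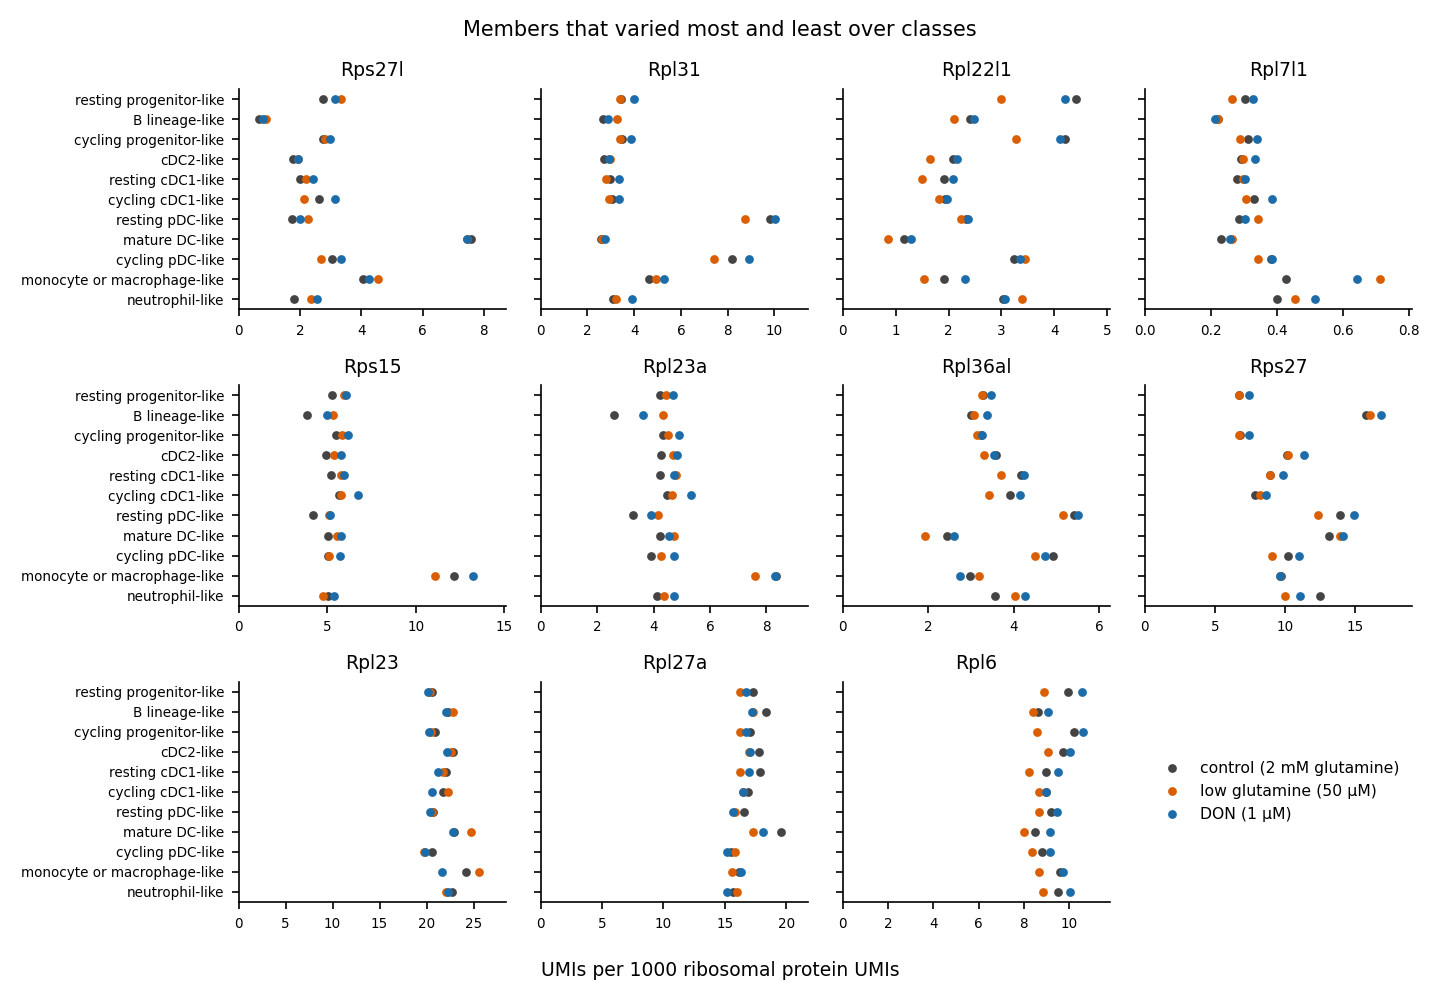
UMIs per 1000 ribosomal protein UMIs (horizontal axes, from 0) for the 8 members that varied most over the 11 classes and the 3 that varied least (bottom row). Points are libraries. Rpl31 stands apart in both pDC-like classes, Rps27l in mature DC-like cells and Rps15 in monocyte or macrophage-like cells, while Rpl6 lies in a narrow band.

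The subunits moved nearly together. In resting cDC1-like cells the small subunit genes took 13.2%, 12.99% and 12.7% of UMIs and the large subunit genes 14.4%, 13.7% and 13.8% in control, low glutamine and DON. The ratio of large to small was 1.09, 1.05 and 1.09. It was 1.083, 1.046 and 1.084 in cDC2-like cells, 1.11, 1.09 and 1.12 in resting pDC-like cells and 1.06, 1.04 and 1.07 in resting progenitor-like cells, so low glutamine was lowest in each. In cycling cDC1-like and cycling pDC-like cells it was not the lowest, with 1.04, 1.04 and 1.05 in the former and 1.02, 1.03 and 1.03 in the latter. The P stalk genes Rplp0, Rplp1 and Rplp2, whose proteins recruit elongation factors, had median log2 ratios at low glutamine of 0.05 in resting cDC1-like, 0.09 in cDC2-like, -0.00 in resting pDC-like and 0.07 in resting progenitor-like cells. Those of the large subunit were -0.06, -0.09, -0.22 and -0.03. With the median ratio scaling the P stalk medians of the cDC1-like and cDC2-like cells turn below 0.

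Ribosomal proteins whose symbols fall outside the rule were looked at beside the members. Fau, a ubiquitin-like fusion with a small subunit protein, had 8461, 6033 and 7256 CPM in resting pDC-like cells, with log2 ratios of -0.49 and -0.22. Rack1, a scaffold on the small subunit, had ratios between -0.09 and 0.14 in the 4 classes above.

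The genes around ribosome production were described by lists. Of 55 measured ribosome biogenesis factors, 17 were 25% higher and 0 lower at low glutamine in resting pDC-like cells. Of all genes that reached 5 CPM, 23.7% were higher and 4.76% lower. The median was 0.21 for the factors and 0.15 over all genes. In the DON library 19 factors were higher and 0 lower in resting cDC1-like cells, against 9.764% and 4.6004% of all genes. The median was 0.24 for the factors and 0.08 over all genes. Ncl, which encodes nucleolin, had 359 CPM in control and 501 at low glutamine in resting pDC-like cells (0.47), and 542 in control and 686 with DON in resting cDC1-like cells (0.34). Npm1 and Fbl, also in the list, were at -0.10 and 0.11 in the former comparison and at 0.07 and 0.12 in the latter. In cDC2-like cells 0 of 55 factors passed this limit in either direction under either treatment, with medians of 0.01 and 0.07. Of all genes 21.9% were higher and 3.86% lower at low glutamine, and 2.59% and 1.68% with DON. Their medians were 0.14 and 0.05. Over classes these factors took 1.03% of UMIs in resting progenitor-like cells of control, 0.52% in resting cDC1-like, 0.44% in cDC2-like and 0.38% in resting pDC-like cells.

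The elongation factors and other TOP mRNAs, 18 measured, had medians of -0.12, -0.10, -0.11 and -0.02 at low glutamine in resting cDC1-like, cDC2-like, resting pDC-like and resting progenitor-like cells, and from -0.03 to 0.01 with DON. Eef1a1, the factor that brings transfer RNA to the ribosome, had ratios of -0.14, -0.20, -0.25 and -0.19 at low glutamine. Other genes of the list did not all follow it: in the same order Eef2 was at 0.04, 0.09, -0.05 and 0.29. Tpt1 was at 0.08, -0.05, -0.13 and 0.10. The regulators of ribosomal protein synthesis, a list of activators and inhibitors together, had medians of 0.28, 0.20, 0.22 and 0.29 at low glutamine. Over all genes of at least 5 CPM the medians were 0.08, 0.14, 0.15 and 0.05. In resting cDC1-like cells 10 of 22 measured regulators were higher and 2 lower, against 18.5% and 6.10% of all genes. Myc, which drives ribosome production, had 46.0, 63.5 and 69.0 CPM in resting cDC1-like cells and 64.7, 96.4 and 69.5 in resting progenitor-like cells. It was near the floor in resting pDC-like cells, at 2.38 to 2.85 CPM.

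Of 78 measured mitochondrial ribosomal protein genes, 1 was higher and 9 lower at low glutamine in resting cDC1-like cells, 1 and 0 in cDC2-like, 2 and 0 in resting pDC-like and 1 and 6 in resting progenitor-like cells. Of all genes 18.5% were higher and 6.10% lower there, 21.9% and 3.86%, 23.7% and 4.76%, and 15.2% and 6.36% in the same order. With DON it was 6 and 0, 0 and 0, 0 and 0, and 1 and 2, against 9.764% and 4.6004%, 2.59% and 1.68%, 2.201% and 2.45%, and 9.17% and 8.08% of all genes. Of the RNA polymerase I and III genes, 18 or 19 measured, 1 to 4 were higher and at most 1 lower at low glutamine. Of 28 translation initiation factors, 2 to 5 were higher and at most 1 lower.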

How the data were processed

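Each library has 1 deposited matrix of UMI counts, not normalised. Cell Ranger 6.0.0 made them, per the file headers. The submitters' processing notes give version 3.1.0 of it, and mm10. Gene positions came from GENCODE vM21, which holds 99.6% of the gene identifiers, and promoters from RefSeq (GRCm38.p6). The members and gene lists were chosen with earlier results of these data known.

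Cells needed 1000 UMIs, 500 genes and no more than 10% mitochondrial UMIs. Doublets were called by the Scrublet method (2 simulated per cell, expected rate 0.08). Its automatic threshold failed in the DON library, marking almost no cells, other bin numbers and transforms gave no stable one, so 1 score threshold of 0.25 was set for all libraries after the scores were seen. It marked 7.12%, 4.72% and 5.14% of cells in control, low glutamine and DON, and 49.2 to 56.4% of simulated doublets lay above it. From 2000 variable genes without members and mitochondrial genes, 30 components and 20 neighbours gave 24 Leiden clusters at resolution 1 (scanpy 1.11.5, leidenalg 0.10.2, seed 1).

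A cluster took a name when at least 3 markers of 1 type were 2-fold higher (pseudocount 10 CPM), at least 1 of them stood in its top 10, and no other type had as many there. After the clusters were seen, 2 conditions were added: the type had to have the most raised markers, and pDC-like clusters needed raised Tcf4. They left 3 clusters unnamed that the first rule names (cluster 8 pDC-like, cluster 16 cDC2-like, cluster 22 T, NK or innate lymphoid). An earlier pDC condition, on Siglech, had left cluster 8 named.

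UMIs were summed per class and library. Log2 ratios were taken after adding 5 CPM to both values, which understates those of low genes. Genes of at least 20 CPM in 1 compared library were counted, list genes from 5 CPM. Named members are the 3 highest and 3 lowest per treatment and class (at least 50 CPM in control), per cycling type, the 6 widest and 3 narrowest over classes, and fixed genes. Ratios and calls were tested on simulated counts. There were 19 alternatives planned and 1 added. Some named results are not reported here.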

Additional observations from a re-analysis of the deposited data

How the results depend on the processing

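No paired analysis was possible because each group has 1 library. Settings were changed 1 at a time, and values are log2 share ratios to control unless said otherwise. For no count of members higher than control, at either treatment in the 4 classes, did a setting give a value above 0. The cause of the shifts below was not tested.

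The ratio of all cells at low glutamine (0.01) turned to -0.03 as a mean over cells, to -0.027 as the median of cells thinned to 2000 UMIs and to -0.10 in cells of 5000 to 10000 UMIs. It was 0.014 with doublets kept, 0.0294 with the stricter cell filter, 0.006297 with 3 genes outside the rule added and 0.022 without mitochondrial UMIs. With DON (-0.07) these 4 gave -0.074, -0.073, -0.075 and -0.065, and the depth window -0.082. With the control mix, low glutamine (-0.06) and DON (-0.05) gave -0.054 and -0.053 at resolution 0.6, -0.063 and -0.054 with members among the variable genes, -0.058 and -0.058 with doublets kept, -0.049 and -0.050 with the stricter filter, and low glutamine -0.052 with the mix by class.

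In resting pDC-like cells the low glutamine ratio (-0.20) was -0.207 at resolution 0.6, -0.192 with members among the variable genes, -0.179 with doublets kept, -0.173 with the stricter filter, -0.204 with the 3 genes added, -0.205 thinned, -0.188 without mitochondrial UMIs, -0.217 in cluster 1 and -0.172 in cluster 2. The DON ratio (-0.06) was -0.056 with members variable, -0.057 with doublets, -0.064 with the 3 genes, -0.056 without mitochondrial UMIs, -0.055 under the first naming rule alone (chosen after seeing the data), -0.041 in cluster 1 and -0.069 in cluster 2.

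In cDC2-like cells low glutamine (-0.07) gave -0.073 with members variable, -0.065 with doublets, -0.065 with the stricter filter, -0.075 with the 3 genes, -0.064 thinned, -0.061 without mitochondrial UMIs, -0.064 in the depth window, -0.095 under the first naming rule and -0.154 in cluster 12. DON (-0.05) gave -0.054 with members variable, -0.043 with the stricter filter, -0.054 with the 3 genes, -0.045 as a mean over cells, -0.039 thinned, -0.045 without mitochondrial UMIs, -0.049 in the depth window, -0.059 under the first naming rule, -0.059 in cluster 0 and -0.033 in cluster 12.

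In resting cDC1-like cells low glutamine (-0.04) gave -0.034 with the stricter filter, -0.036 as a mean over cells, -0.020 thinned, -0.037 without mitochondrial UMIs and -0.035 in the depth window. DON (-0.06) gave -0.054 with doublets, -0.045 with the stricter filter, -0.059 with the 3 genes, -0.047 as a mean over cells, -0.043 thinned, -0.050 without mitochondrial UMIs and -0.030 in the depth window.

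In resting progenitor-like cells low glutamine (-0.01) gave -0.019 at resolution 0.6, -0.019 with members variable, -0.021 with doublets, -0.022 with the stricter filter, -0.018 as a mean over cells, -0.019 thinned, -0.0048 without mitochondrial UMIs and -0.033 in the depth window. DON (-0.04) gave -0.030 (resolution 0.6), -0.033 (members variable), -0.044 (stricter filter), -0.042 (mean over cells) and -0.079 (depth window). Cycling over resting progenitor-like cells (-0.10) gave -0.117 with members variable, -0.120 as a mean over cells, -0.116 thinned, -0.347 in the depth window, where control and DON each held under 20 cycling cells, and -0.139 by single cells. A limit of 0.6% left no resting progenitor-like class.

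The mean share over libraries was 30.5% (cDC2-like), 29.2% (resting cDC1-like), 31.9% (cycling progenitor-like), 21.3% (cycling pDC-like) and 34.3% (resting progenitor-like) with the 3 genes, and 30.5%, 29.2%, 32.4%, 21.6% and 34.9% without mitochondrial UMIs. For cycling pDC-like cells it was 21.1% with doublets, 21.4% with the stricter filter, 19.8% thinned and 19.1% in the depth window, where cycling and resting progenitor-like cells had 27.2% and 34.6%. Monocyte or macrophage-like and neutrophil-like cells had 13.3% and 9.2% as a mean over cells, and 13.2% and 6.725% thinned.

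Of the 7 members lower at low glutamine in resting pDC-like cells, counts were 19 with other genes as the total, 45 with median of ratios, 3 under the first naming rule, 3 in cluster 2, 2 with the stricter filter and 0 at 1.5-fold. In resting cDC1-like cells (1) they were 2 with the 3 genes added, 2 with other genes as total, 2 with median of ratios and 0 at 1.5-fold. In cDC2-like cells (1) they were 2, 3 with median of ratios and 0 at 1.5-fold, and in resting progenitor-like cells (3) 1 with members variable, 1 with doublets and 0 at 1.5-fold. With DON, adding the 3 genes gave 1 in each of the 4 classes. Members higher in cycling pDC-like cells were 8 with the stricter filter (4). For these counts the share over all genes under the changed settings is not given here.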
